A study of Mus musculus with 24 samples.

Results

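Open chromatin was examined at 10 mouse genes of the neutrophil granule and calprotectin programme: S100a8, S100a9, Ltf, Mmp8, Mmp9, Mpo, Elane, Cebpe, Fcnb and Camp. The genes were chosen as a family, and a peak was counted for a gene where the gene's body was the protein-coding gene body nearest to the peak summit and lay at most 50 kb away. By this rule 386 of 1274891 peaks in 24 libraries (0.0303%) belonged to the family, and they merged into 29 of 102580 regions. Of these, 26 regions were found in at least 2 libraries and 3 in 1 library. Peaks were assigned to 9 of the 10 genes, and Elane had none. ATAC-seq, in which the Tn5 transposase cuts and tags accessible DNA, had been applied to macrophages grown from bone marrow of male C57Bl/6 mice. The 4 groups of 6 libraries were macrophages of mice made diabetic with streptozotocin (STZ), a toxin of insulin-producing beta cells, stimulated with 100 ng/mL LPS and 10 ng/mL IFNγ; macrophages of untreated wild-type control mice stimulated in the same way; unstimulated macrophages of diabetic mice; and unstimulated macrophages of control mice. The series description gives 6 diabetic and 6 control samples, each divided between both states. The treatment protocol says that baseline cells were lysed at once and gives 6 h of culture for cells exposed to IL-1β, which no other label of these samples names. Stimulation and time in culture can therefore not be told apart in any comparison of the states.

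Neutrophils store antimicrobial proteins in granules that form in a fixed order during maturation. Primary (azurophil) granules hold myeloperoxidase, encoded by Mpo, and neutrophil elastase, encoded by Elane. Secondary granules hold lactoferrin (Ltf) and cathelicidin (Camp), and gelatinases such as Mmp9 are packed later. S100A8 and S100A9 form calprotectin, an abundant cytosolic protein that binds calcium and zinc and acts through TLR4 and RAGE when released. Macrophages share a myeloid precursor with neutrophils, and Mmp9, S100a8 and S100a9 can also be expressed by monocytes and macrophages.

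The starts of 3 of the genes carried a peak in most libraries, and their sequences are shown because these are the positions at which open chromatin met a transcription start. The 250 bases before the start are given 5′ to 3′ on the gene's strand (RefSeq, GRCm38.p6), with matches to any of 6 searched motifs in capitals. They lie at chr3:90668821-90669070 on the plus strand for S100a8, at chr9:7558179-7558428 on the plus strand for Mmp8 and at chr9:109849457-109849706 on the minus strand for Camp.
S100a8: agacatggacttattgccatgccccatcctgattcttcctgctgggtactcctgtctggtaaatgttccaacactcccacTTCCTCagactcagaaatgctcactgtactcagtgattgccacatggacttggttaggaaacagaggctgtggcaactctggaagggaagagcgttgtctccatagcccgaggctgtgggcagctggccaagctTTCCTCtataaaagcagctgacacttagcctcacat
Mmp8: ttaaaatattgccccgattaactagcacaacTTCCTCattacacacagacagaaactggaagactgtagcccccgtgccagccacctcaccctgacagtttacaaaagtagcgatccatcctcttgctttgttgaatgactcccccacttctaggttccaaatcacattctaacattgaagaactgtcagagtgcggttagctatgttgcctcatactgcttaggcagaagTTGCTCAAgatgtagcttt
Camp: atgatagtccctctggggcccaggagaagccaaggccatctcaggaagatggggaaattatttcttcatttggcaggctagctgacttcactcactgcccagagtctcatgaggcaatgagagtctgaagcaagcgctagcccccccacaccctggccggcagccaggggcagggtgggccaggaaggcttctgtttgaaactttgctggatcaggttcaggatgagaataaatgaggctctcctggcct
A peak overlapped the window from 250 bases before to 50 after the start in 6 of 6 diabetic stimulated, 4 of 6 control stimulated, 6 of 6 diabetic unstimulated and 6 of 6 control unstimulated libraries at S100a8. At Mmp8 and at Camp it did so in all 24. The median summit lay at −26 bases from the start of S100a8, at −43 from that of Mmp8 and at −218 from that of Camp. None of 24 libraries had a peak over the same window of S100a9, Ltf, Mpo, Elane or Fcnb, and windows of Mmp9 and Cebpe were not examined. Of 32851 promoter windows in the RefSeq table, 32.0% overlapped a region found in all 24 libraries.

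The motifs, searched on both strands, were GAGGAA for ETS factors such as PU.1, TTGCNNAA for C/EBP, TGTGGT for RUNX, TGANTCA for AP-1, and the longer kappa B and ISRE (interferon-stimulated response element) patterns. The S100a8 window held 2 ETS matches, at −170 and −36. The Mmp8 window held 1 ETS match at −219 and 1 C/EBP match at −19, and the Camp window held no match to any of the 6. Over all 32851 windows, 28.3% held the ETS, 10.8% the C/EBP, 16.8% the RUNX, 7.81% the AP-1, 4.79% the kappa B and 3.44% the ISRE pattern. No match overlapped another in the 3 sequences shown.

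The peak lists held 41385 to 61861 peaks per library, ending at a q-value of about 0.05, and how many reads stand behind them is not stated in the labels. A summit carried at least 5 or 6 tags in every list. Macrophage identity was visible in all libraries: 10 of 12 macrophage markers, Csf1r, Adgre1 and Spi1 among them, had a peak in every library. Of 8 neutrophil markers outside the family, Csf3r alone did so. Prtn3 had a peak in 23 libraries, Cxcr2 in 19, Ctsg in 12, Retnlg in 6 and Lcn2 in 3. Ly6g and Ngp had no peak in any library. The 8 neutrophil markers had between 0.1 and 0.22 peaks per 1000 in diabetic unstimulated and between 0.0972 and 0.16 in control unstimulated libraries, and the part of other cells in the results below was not tested. Control stimulated replicate 6 stood apart from its group with 21 member peaks, against 11 to 15 in the other 5 libraries. A peak that is missing lay below the calling threshold, which does not show closed chromatin, and in bulk cells fewer open cells cannot be told apart from less opening per cell.

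**Figure D1:**
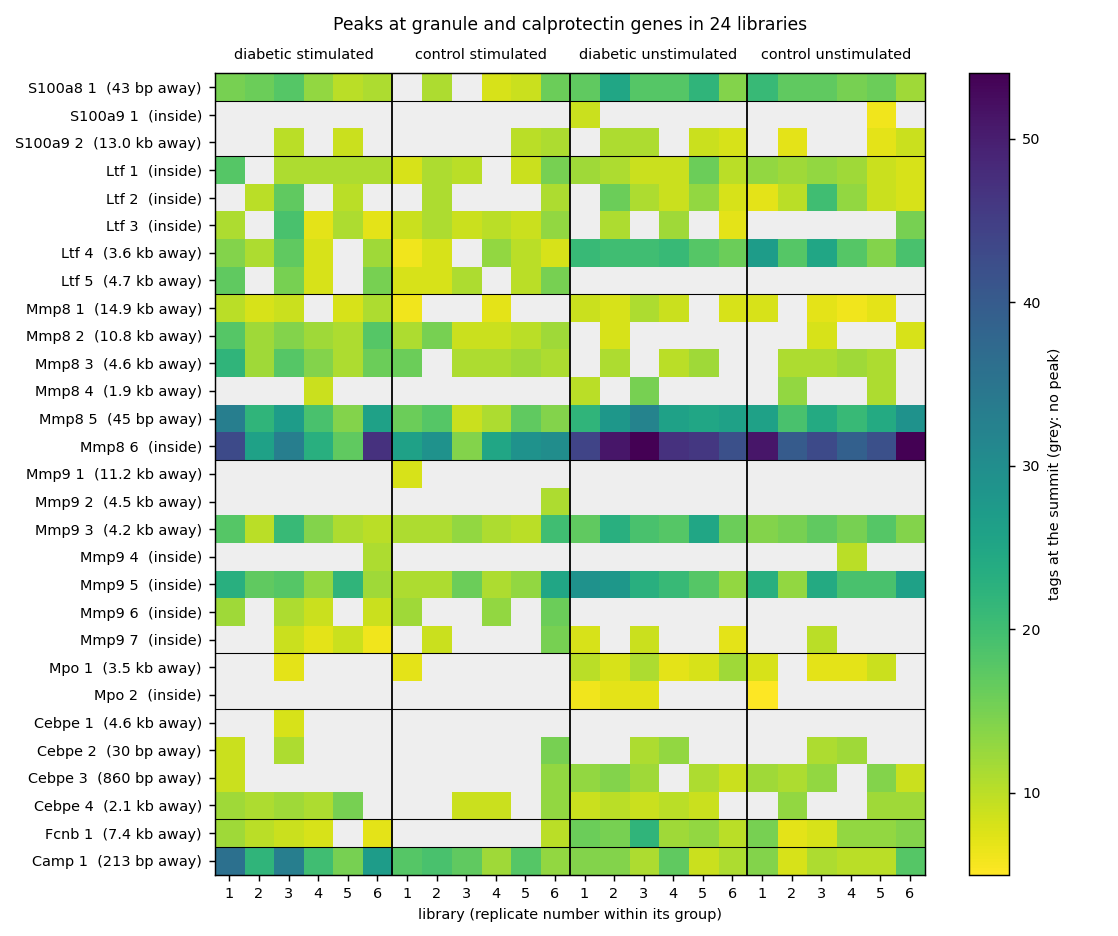
Tags at the peak summit (colour) in the 29 regions of the granule and calprotectin genes (rows, with their distance from the gene body) in 24 libraries (columns, by group), with grey where no peak was listed. Regions of Mmp8, Mmp9 and Camp were found in all 24 libraries. The Ltf region 4698 bp beyond the gene (9 libraries) and 1 region inside Mmp9 (7 libraries) had peaks in stimulated libraries and in no unstimulated one.

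The question given most weight was whether the family differs between diabetic and control macrophages at rest. No region of these genes was found to differ. Member peaks numbered 15 to 19 (median 16.5) in diabetic unstimulated libraries and 14 to 18 (median 15) in control unstimulated libraries, so the groups overlapped. Per 1000 peaks of the library these were 0.306 ± 0.0121 in diabetic and 0.281 ± 0.0297 in control macrophages (SD, n = 6 each); the sum over the family was not tested. Of 26 regions found in at least 2 libraries, 7 were found in more diabetic than control libraries, 4 in fewer and 15 in equally many. Among all 80598 such regions these shares were 19.8%, 21.3% and 58.9%. The largest difference was 2 of 6 libraries, at 5 regions (19.2%), and all 5 had more diabetic libraries. Among all 80598 regions, 5.52% had 2 more diabetic libraries and 5.9% had 2 fewer. Whether the members depart from these shares was not tested.

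Mpo, the gene of the peroxidase that makes hypochlorous acid, held a pair of these 5. Its region at chr11:87790210-87790578, 3452 bp upstream of the gene body, had a peak in 6 of 6 diabetic and 4 of 6 control unstimulated libraries (exact Clopper-Pearson 95% intervals 54.1 to 100.0% and 22.3 to 95.7%). Where a peak was listed there, its summit held 7 to 12 tags (median 9.0) in diabetic and 7 to 9 tags (median 7.5) in control libraries, close to the lowest count that was called. The second, inside Mpo, was found in 3 of 6 diabetic and 1 of 6 control libraries. Mpo peaks averaged 1.5 ± 0.548 per library in diabetic and 0.833 ± 0.753 in control unstimulated macrophages (SD, n = 6 each). Divided by library peak number, this difference gave p = 0.0433 in a two-sided exact permutation test and p = 0.973 after Benjamini-Hochberg adjustment over 15858 genes, so it is not called. Of all genes, 4.5% had an unadjusted p under 0.05 in this comparison.

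The other 3 regions with a difference of 2 libraries lay at Cebpe, Mmp9 and Ltf. The Cebpe region at chr14:54714086-54714492 was found in 5 diabetic and 3 control unstimulated libraries, and those inside Mmp9 and Ltf in 3 diabetic and 1 control library each. Fisher's exact test gave p = 0.545 for each of them. The S100a8, Camp and Fcnb regions, and 2 regions each of Mmp8, Mmp9 and Ltf, were found in all 12 unstimulated libraries and so showed no difference in detection.

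The exact test on detection could reach an unadjusted p under 0.05 at only 2 of the 26 regions at rest, those at chr3:90708562-90708902 near S100a9 (4 diabetic and 3 control libraries) and at 4625 bp from Mmp8 (3 diabetic and 4 control libraries). Neither did. Across all genes 0 of 8788 testable regions passed (0.0% called) and 137 (1.56%) had an unadjusted p under 0.05 by Fisher's exact test. With 6 libraries a group, 381 fully separated regions would have been needed for any to pass the adjustment, and 7 were present. Detection in 6 libraries a group thus had little room to show a difference at rest.

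Peak height was compared in addition for regions found in every library compared, a test added after the data had been seen. Each region was ranked by its deposited fold enrichment within its library, from 0 for the lowest to 100 for the highest. The Mmp9 region at chr2:164935995-164936367, 4159 bp from the gene, ranked at 41.8 to 76.0 in diabetic and 25.7 to 51.1 in control unstimulated libraries, with means of 54 ± 12.4 and 39.0 ± 10.5 (SD, n = 6 each). The groups overlapped, and the exact permutation p of 0.0455 became 0.747 after adjustment over 32196 regions. S100a8 ranked at 55.8 ± 11.5 in diabetic and 47.8 ± 13.4 in control libraries (exact permutation p = 0.297, adjusted 0.891). Camp ranked at 29.7 ± 17.2 in diabetic and 25.5 ± 19.4 in control libraries (exact permutation p = 0.697, adjusted 0.966). None of the 9 member regions, and none of 32196 regions in all (0.0% called), passed at rest, whereas 2127 (6.61%) had an unadjusted p under 0.05.

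**Figure D2:**
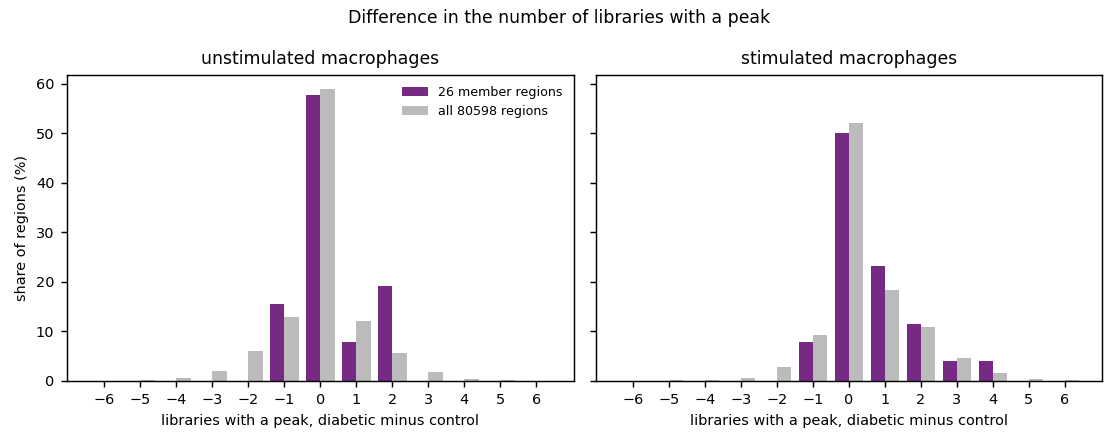
Share of regions (y, percent) by the difference in the number of libraries with a peak, diabetic minus control (x), for 26 member regions and all 80598 regions, in unstimulated and stimulated macrophages. At rest the members lie between −1 and 2 libraries, and after stimulation between −1 and 4.

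After stimulation, member peaks numbered 14 to 22 (median 17.5) in diabetic and 11 to 21 (median 13) in control libraries, or 0.323 ± 0.0406 and 0.300 ± 0.045 per 1000 peaks (SD, n = 6 each). Whole lists held 53703 ± 4511 peaks in diabetic and 47268 ± 4535 in control stimulated libraries. More diabetic than control libraries had a peak at 11 of 26 member regions and fewer at 2, while 35.4% of all regions had more and 12.5% fewer. Fcnb, which encodes ficolin B, a lectin of myeloid cells, showed the largest difference. Its only region, chr2:28092035-28092531 at 7386 bp upstream, had a peak in 5 of 6 diabetic and 1 of 6 control stimulated libraries (Fisher's exact test p = 0.0801, adjusted 0.835). The Mmp8 region at 14908 bp had one in 5 diabetic and 2 control libraries (Fisher's exact test p = 0.242, adjusted 0.835). No member region among 5 tested, and none of 9681 regions (0.0% called), passed Fisher's exact test; 292 regions (3.02%) had an unadjusted p under 0.05, none of them a member.

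The largest differences in the rank of peak height after stimulation were at Mmp8 and Camp, and neither was called. Camp ranked at 61.4 to 95.2 in diabetic and 25.5 to 72.2 in control stimulated libraries (means 79.4 ± 11.5 and 56.8 ± 18.6, SD, n = 6 each). The region at the Mmp8 start ranked at 49.6 ± 15.9 in diabetic and 23 ± 16.5 in control libraries. Both groups of ranks overlapped, both exact permutation p-values were 0.0238 and both adjusted values were 0.727 over 25221 regions, of which none was called (0.0%) and 1630 (6.46%) had an unadjusted p under 0.05.

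Stimulated were then compared with unstimulated macrophages, with phenotypes pooled (12 libraries each). Regions of Mmp8, Ltf and Mmp9 were found in more stimulated libraries, and regions of Mpo, Cebpe and Fcnb in fewer. Of 15 testable member regions, 4 (2 of Ltf, 1 each of Mmp8 and Mmp9) passed as higher and 3 as lower. Of all 31219 testable regions, 9.19% were called higher and 18.9% lower, 28.1% in either direction. The libraries of a state share their source with those of the other state, and the labels do not tie them one to one, so the fit is unpaired. Without control stimulated replicate 6, 8 member regions were called, 4 in each direction.

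Mmp8, the neutrophil collagenase, had 6 regions, and the one called higher after stimulation lay 10838 bp upstream of its start. At chr9:7547401-7547967 a peak was listed in 6 of 6 diabetic stimulated, 6 of 6 control stimulated, 1 of 6 diabetic unstimulated and 2 of 6 control unstimulated libraries. This made 12 of 12 stimulated against 3 of 12 unstimulated libraries (exact 95% intervals 73.5 to 100.0% and 5.49 to 57.2%; Fisher's exact test p = 0.000337, adjusted 0.00388). The summit held 11 to 18 tags (median 13) in diabetic stimulated and 9 to 15 (median 10.5) in control stimulated libraries, and 8 tags in each of the 3 unstimulated libraries with a peak. When all lists were cut to their strongest 41385 peaks, the count was 12 of 12 stimulated against 0 of 12 unstimulated libraries (adjusted p = 4.21e-05).

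No other Mmp8 region was called in the pooled comparison. The region inside the gene at chr9:7567073-7567792 was found in all 24 libraries with the most tags of any member, 17 to 47 (median 29.5) in diabetic stimulated, 14 to 30 (median 27.5) in control stimulated, 42 to 54 (median 46.5) in diabetic unstimulated and 39 to 54 (median 42.5) in control unstimulated libraries. Tag numbers follow sequencing depth, and by rank its height did not differ beyond the threshold in either phenotype (diabetic 71.9 ± 15.3 stimulated and 85.4 ± 3.68 unstimulated, exact permutation p = 0.0758, adjusted 0.27; control 64.3 ± 22 and 78.2 ± 8.71, exact permutation p = 0.145, adjusted 0.308). The region at the start, whose sequence is given above, was found in all 24 libraries as well. Its rank was 53.3 ± 15.2 in diabetic stimulated and 56.1 ± 12 in diabetic unstimulated libraries (exact permutation p = 0.727, adjusted 0.871). In control macrophages it was 23 ± 16.3 stimulated and 45.4 ± 13.6 unstimulated (exact permutation p = 0.039, adjusted 0.137). The region 4625 bp upstream was listed for 11 stimulated samples and 7 unstimulated ones (Fisher's exact test p = 0.155, adjusted 0.308), yet passed when peaks had to cover at least 50% of the region (11 and 0 libraries, adjusted p = 0.000462) and in lists of equal length (10 and 3 libraries, adjusted p = 0.0472).

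**Figure D3:**
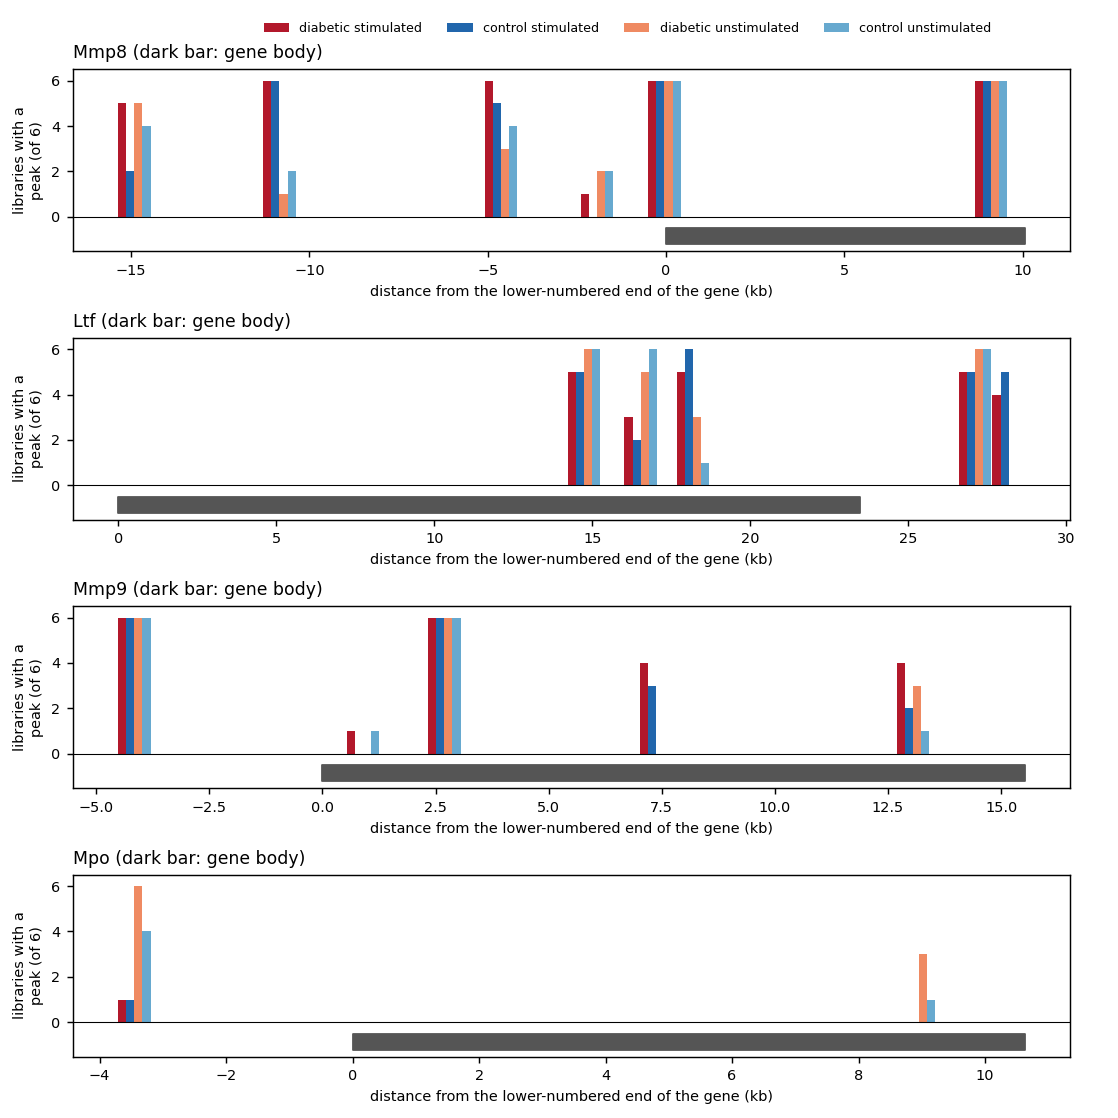
Number of libraries with a peak (y, of 6 per group) at each region found in at least 2 libraries along Mmp8, Ltf, Mmp9 and Mpo (x, kb from the lower-numbered gene end; dark bar, gene body). The Mmp8 region 10838 bp upstream was found in 12 stimulated and 3 unstimulated libraries, and the Mpo region 3452 bp upstream in 2 and 10.

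Ltf, the gene of lactoferrin, an iron-binding protein of secondary granules, had 5 regions, none of them at its start. The region at chr9:111047364-111047675, 4698 bp beyond its 3′ end, was found in 4 of 6 diabetic and 5 of 6 control stimulated libraries and in none of 12 unstimulated ones, 9 against 0 in all (exact 95% intervals 42.8 to 94.5% and 0.0 to 26.5%; Fisher's exact test p = 0.000337, adjusted 0.00388). Its summit held 8 to 17 tags (median 15) in the diabetic and 8 to 15 (median 10.0) in the control stimulated libraries with a peak. The next protein-coding gene, Ccrl2, lay 7370 bp from the summit, and assignment to the nearest gene does not show which gene such a region serves. A second region inside Ltf, chr9:111037305-111037666, had a peak in 11 stimulated and 4 unstimulated libraries (Fisher's exact test p = 0.00942, adjusted 0.0437). It missed the threshold in lists of equal length, where the counts were 8 and 2 (adjusted p = 0.0938), and with peaks covering at least 50% of the region (adjusted p = 0.0507). Among peaks with −log10 q of at least 5 the difference in the share of libraries was 16.7 percentage points, against 58.3 with all peaks (adjusted p = 0.837), and with replicate number as a block the adjusted p was 0.0778. Another inside the gene, chr9:111035665-111035989, was not called, with a peak in 5 stimulated and 11 unstimulated libraries (Fisher's exact test p = 0.0272, adjusted 0.0895). The region at chr9:111046175-111046621, found in 22 libraries, had 8 to 17 tags (median 12) in diabetic stimulated, 6 to 13 (median 8.0) in control stimulated, 16 to 21 (median 20) in diabetic unstimulated and 14 to 27 (median 18.5) in control unstimulated libraries. With all peaks it had 10 stimulated and 12 unstimulated libraries and was not called. Among peaks with −log10 q of at least 5 it was called lower (6 and 12 libraries, Fisher's exact test, adjusted p = 0.0441).

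Mmp9, gelatinase B, had its 2 strongest regions in all 24 libraries, the one 4159 bp from the gene and one inside it at chr2:164942677-164943340. The region inside the gene at chr2:164947574-164947963 was found in 4 of 6 diabetic and 3 of 6 control stimulated libraries and in none of 12 unstimulated ones (7 against 0, Fisher's exact test p = 0.00458, adjusted 0.0235). It was a weak peak of 9 to 12 tags (median 10.0) in diabetic and 12 to 16 (median 13) in control stimulated libraries. In lists of equal length it kept 3 stimulated libraries, all of them control, too few to reach an unadjusted p under 0.05. The call was likewise lost among peaks with −log10 q of at least 5 and with peaks covering at least 50% of the region, where the difference in the share of libraries was 25 percentage points, against 58.3. The region outside the gene ranked at 26.3 ± 14.3 in diabetic stimulated and 48.8 ± 13.1 in diabetic unstimulated libraries (exact permutation p = 0.0195, adjusted 0.13). The strong region inside ranked at 13.8 ± 8.93 in control stimulated and 33.0 ± 16.9 in control unstimulated libraries (exact permutation p = 0.039, adjusted 0.137).

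The 3 regions called lower belonged to Mpo, Cebpe and Fcnb. The upstream Mpo region had a peak in 1 of 6 diabetic and 1 of 6 control stimulated libraries and, as given above, in 6 of 6 and 4 of 6 unstimulated ones (2 against 10, Fisher's exact test p = 0.00333, adjusted 0.0209). In lists of equal length it kept a peak in 1 stimulated library and in 4 unstimulated ones (adjusted p = 0.511), and with peaks covering at least 50% of the region the adjusted p was 0.177. Among peaks with −log10 q of at least 5 the difference in the share of libraries was −33.3 percentage points, against −66.7, and could not reach an unadjusted p under 0.05. Cebpe encodes C/EBP epsilon, a transcription factor needed for secondary granule genes. Its region at chr14:54712854-54713215, 860 bp from the gene body, had a peak in 1 diabetic and 1 control stimulated library, against 5 diabetic and 5 control unstimulated ones (2 against 10, Fisher's exact test p = 0.00333, adjusted 0.0209). In lists of equal length this was 0 against 6 (adjusted p = 0.0472), and the call was lost among peaks with −log10 q of at least 5, where the difference in the share of libraries was −41.7 percentage points, against −66.7 with all peaks (adjusted p = 0.0881). The Cebpe region found most often, that at 2097 bp, had 8 stimulated and 8 unstimulated libraries. In lists of equal length that region was called higher in diabetic macrophages (5 stimulated and 0 unstimulated libraries, Fisher's exact test, adjusted p = 0.0468). The Fcnb region was found in 6 stimulated and 12 unstimulated libraries (Fisher's exact test p = 0.0137, adjusted 0.0489), and this call missed the threshold, at up to 0.0522, when any of 17 libraries was left out: any unstimulated library, or any of control stimulated replicates 1 to 5. With peaks covering at least 50% of the region the difference in the share of libraries was −25 percentage points, against −50.0 (adjusted p = 0.622), and with replicate number as a block the adjusted p was 0.0653.

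No region of the calprotectin genes was called. With phenotypes pooled, the test of detection could reach an unadjusted p under 0.05 only at the S100a9 region 13016 bp upstream. At the S100a8 region and the region inside S100a9 it could not. The S100a8 region at chr3:90668783-90669397, over the start shown above, was found in 10 stimulated and 12 unstimulated libraries (Fisher's exact test p = 0.478). Both libraries without it were control stimulated ones, replicates 1 and 3, whose lists held 46679 and 41385 peaks. Control stimulated replicate 4 (44525 peaks) and diabetic stimulated replicate 5 (46503 peaks) did have it. The tags of the S100a8 region were 10 to 18 (median 14) in diabetic stimulated libraries and 8 to 16 (median 10.0) in the 4 control stimulated libraries with a peak. They were 14 to 25 (median 18) in diabetic unstimulated and 12 to 21 (median 16.5) in control unstimulated libraries. In diabetic macrophages the rank of the S100a8 region was 35.5 ± 14.6 stimulated and 50.6 ± 12.1 unstimulated (exact permutation p = 0.0801, adjusted 0.279). S100a9 had weaker peaks than its partner: a region 13016 bp upstream was found in 11 libraries, 4 stimulated and 7 unstimulated (Fisher's exact test p = 0.414, adjusted 0.597), and a region inside the gene in 2 unstimulated libraries.

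**Figure D4:**
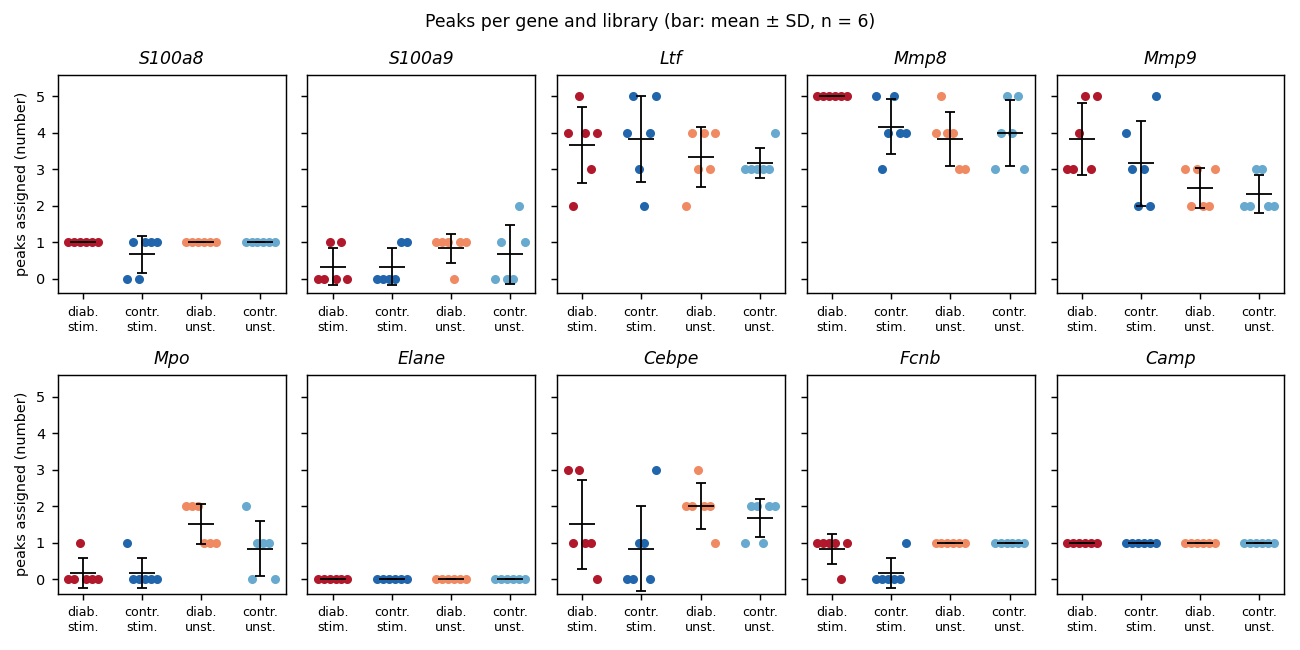
Number of peaks assigned to each gene (y) in each library (points) by group (x), with mean ± SD (n = 6). Camp had 1 peak in every library and Elane none, Mmp8 had 5 in every diabetic stimulated library, and Mpo had at most 1 in stimulated libraries.

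Camp, which encodes the antimicrobial peptide cathelicidin, had 1 peak in every library, over and upstream of the start shown above (chr9:109849284-109850022). Its presence therefore did not differ, and the rank of its height was called between states in diabetic macrophages but not in control ones. When peaks had to cover at least 50% of the region, it was found in 11 stimulated and 3 unstimulated libraries (Fisher's exact test, adjusted p = 0.0221). The summit held 15 to 36 tags (median 24.5) in diabetic stimulated, 12 to 19 (median 17.5) in control stimulated, 9 to 17 (median 12.5) in diabetic unstimulated and 8 to 18 (median 10.5) in control unstimulated libraries. Among regions found in every diabetic library it ranked at 64.4 to 95.6 stimulated and 6.6 to 47.1 unstimulated, with no overlap (means 81.0 ± 10.6 and 25.4 ± 15.6, SD, n = 6 each; exact permutation p = 0.00216, the smallest that orders of 6 against 6 libraries can give, adjusted 0.0443). Of 27280 regions, 4.89% passed in that comparison, 2.29% as higher and 2.6% as lower. Among control libraries it ranked at 25.7 to 71.7 stimulated and 4.36 to 52.7 unstimulated (56.4 ± 18.4 and 20 ± 17.7; exact permutation p = 0.0108, adjusted 0.065, with 13.1% of 24502 regions called, 6.64% higher and 6.46% lower). The difference between these responses was not tested. The call in diabetic macrophages rests on the full number of libraries: without any 1 of the 12, which leaves fewer label orders, the adjusted p lay between a value just above 0.05 and 0.0662, while the difference in rank stayed between 51.2 and 59.6.

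**Figure D5:**
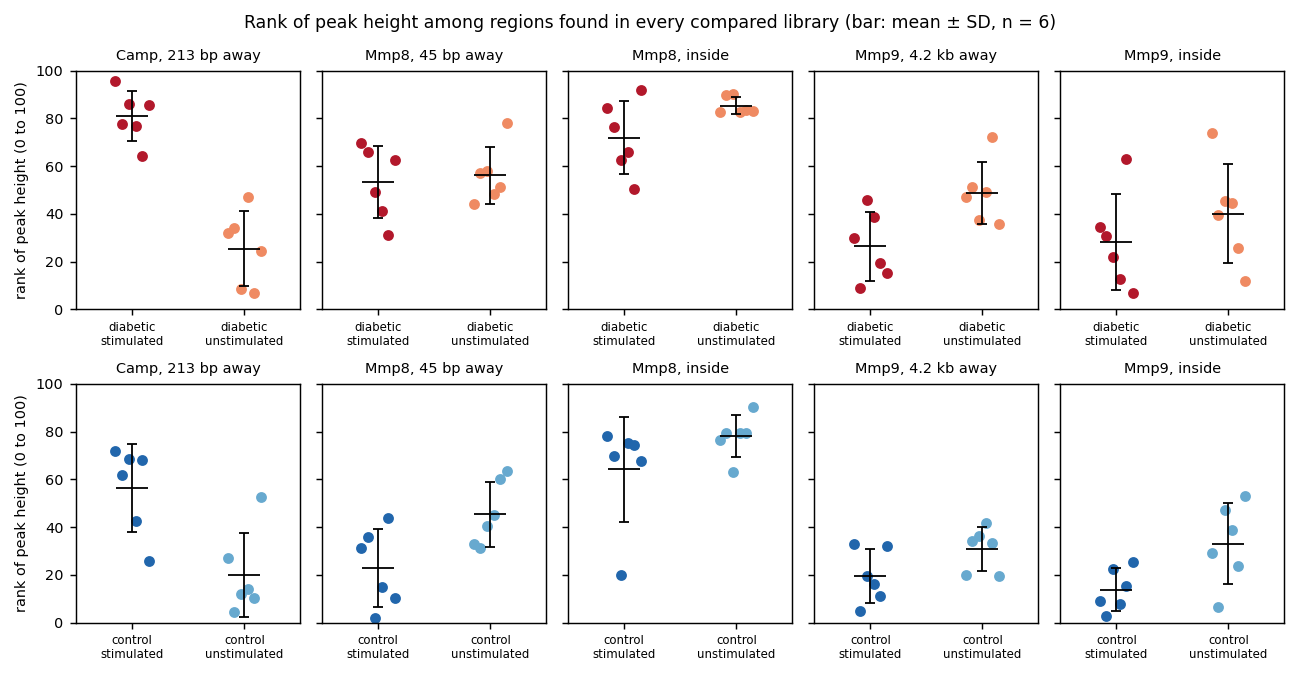
Rank of peak height (y, 0 to 100 within a library) at the 5 member regions found in all 24 libraries, in stimulated and unstimulated libraries (x) of diabetic (top) and control (bottom) mice, with mean ± SD (n = 6). The 6 diabetic stimulated values of Camp (64.4 to 95.6) lie above all diabetic unstimulated ones (6.6 to 47.1), and the other regions overlap.

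Elane had no peak in any of 24 libraries (0 of 6 in each group, exact 95% interval 0.0 to 45.9%), as had 22.7% of 21883 protein-coding genes. The stretch of genome nearest to it spans only 4.79 kb and is bounded by Prtn3 and Cfd, which belong to the same cluster of serine protease genes. The closest open regions were counted for those neighbours. They lay 2525 bp away on the Prtn3 side, found in 19 libraries, and 4731 bp away on the Cfd side, found in 8.

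Detection was also compared between states within each phenotype. In control macrophages 3 of 8 testable member regions passed Fisher's exact test (35.9% of 12111 regions did, 8.41% as higher and 27.5% as lower): both Ltf regions named above were higher (6 against 1 and 5 against 0 libraries) and the Fcnb region was lower (1 against 6), each with an adjusted p of 0.0422. The control count was not stable: it was 0 without control unstimulated replicate 1, 3, 4 or 5 or control stimulated replicate 1, 2 or 3, it was 1 without control unstimulated replicate 6 or control stimulated replicate 4, and it was 5 without control stimulated replicate 6. In diabetic macrophages 0 of 5 passed, where 8.92% of 11708 regions did (5.47% higher and 3.44% lower) and 2 members had an unadjusted p under 0.05: the upstream Mpo region (1 against 6 libraries) and the Mmp8 region at 10838 bp (6 against 1), each with an adjusted p of 0.0559. In lists of equal length 3 member regions were called in diabetic and 2 in control macrophages, and the Mmp8 region at 10838 bp was called in both. The 1044 regions called in diabetic macrophages were those found in all 6 libraries of one state and in none of the other. Zelen's exact test of equal odds found no difference between the responses at any of 4 testable members or 9353 regions (0.0% called), with an unadjusted p under 0.05 at 229 regions (2.45%) and no member. At Fcnb, with 5 diabetic and 1 control stimulated library and all 12 unstimulated ones, this test could not have reached an unadjusted p under 0.05.

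By the number of peaks per gene, Mmp9 averaged 3.83 ± 0.983 in diabetic stimulated and 2.5 ± 0.548 in diabetic unstimulated libraries, and 3.17 ± 1.17 in control stimulated and 2.33 ± 0.516 in control unstimulated ones (SD, n = 6 each). Divided by library peak number these gave exact permutation p-values of 0.0108 and 0.026, adjusted 0.186 and 0.113. Mmp8 averaged 5.0 ± 0.0 in diabetic stimulated and 3.83 ± 0.753 in diabetic unstimulated libraries (exact permutation p = 0.00216, adjusted 0.102), and Mpo 0.167 ± 0.408 and 1.5 ± 0.548 (exact permutation p = 0.00216, adjusted 0.102). No gene among 15917 was called in diabetic macrophages (0.0%), where 2215 (13.9%) had an unadjusted p under 0.05. In control macrophages 2866 of 15900 genes were called, 15.2% as higher and 2.87% as lower. The only member among them was Camp (exact permutation p = 0.00649, adjusted 0.0375), whose peak number was 1 in every library, so that the call came from the divisor alone and vanished in undivided numbers.

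Other genes of the same programme, listed with earlier results of these data known, were compared in the same fits. At rest none of their regions passed Fisher's exact test. The largest differences were 4 of 6 libraries. They lay at Ctsg, the gene of the primary granule protease cathepsin G (6 diabetic and 2 control libraries, Fisher's exact test p = 0.0606), and at Cybb, the catalytic subunit of the NADPH oxidase (2 and 6, Fisher's exact test p = 0.0606). The other, assigned to Tlr4, a receptor of calprotectin and LPS, lay 45173 bp from that gene (5 and 1, Fisher's exact test p = 0.0801). Among all 80598 regions found in at least 2 libraries, 0.403% had 4 more diabetic libraries at rest and 0.505% had 4 fewer. At the Ctsg and Cybb regions the number of libraries with a peak did not allow an unadjusted p under 0.05. Among the 20 testable regions of the 5 lists, none had an unadjusted p under 0.05 at rest.

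The same lists were compared between stimulated and unstimulated macrophages. Of 5 matched primary granule genes, none of 4 testable regions passed by Fisher's exact test, with 1 at an unadjusted p under 0.05, at Ctsg (2 stimulated and 8 unstimulated libraries, adjusted p = 0.0967). Of 10 testable regions of secondary and tertiary granule genes, 0 rose and 3 fell, all of them at Cybb. Among neutrophil surface and signalling genes, regions that rose included 1 of Fpr1 (11 stimulated and 0 unstimulated libraries) and 1 nearest to Fpr2 (12 and 0), both genes of formyl peptide receptors. The 1 region of that list that fell was at Padi4, the enzyme that citrullinates histones in neutrophil extracellular traps (0 and 12 libraries). Calprotectin receptors and relatives had 18 testable regions, 0 higher and 5 lower: 3 at Cd36, 1 at 10614 bp from Tlr4 and 1 at 14855 bp from S100a10. Granulocyte transcription factors had 29, 2 higher and 6 lower. Irf8 had 2 of each direction, among them a region 24956 bp from the gene found in 12 stimulated and 0 unstimulated libraries, and Runx1 lost 3 and Cebpa 1. These counts stand beside the 9.19% called higher and 18.9% called lower among all regions, and no list was tested as a set.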

How the data were processed

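The authors deposited 1 narrowPeak list per library, called separately for each library, with a score, a fold enrichment (ratio) at the summit, and −log10 p and −log10 q values per peak, per the file format. These values are the authors' own. Per the submitters' processing notes, the tools were MACS2 2.1.1, Bowtie2 2.2.6, edgeR, DiffBind 2.4.8, Trim Galore 1.8 and FastQC 0.11.3, on mm10; their roles, settings and any Tn5 shift are not stated there. Per the labels, nuclei of 50000 cells were transposed and single reads of 50 bp sequenced.

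Peaks overlapping by at least 1 bp were merged into regions. Libraries with a peak were compared with two-sided Fisher's exact tests (Zelen's exact test between responses), adjusted by Benjamini-Hochberg at 0.05 over all regions found in at least 2 libraries that could reach p under 0.05. Peaks per gene, per 1000 peaks, and ranks of fold were permuted exactly over every label order (two-sided). Tags were recovered from the deposited fold and p-values (pseudocount 1) for 100% of member peaks, within 0.003 of −log10 p, against 1.04% after shuffling. Genes came from RefSeq (GRCm38.p6) without exons. Scripts were tested on simulated data and used Python 3.11.15, scipy 1.17.1 and pandas 2.3.3. Coordinates are mm10, counted from 1. Intervals cover the counting of libraries only.

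Members and lists were chosen with earlier results of these data known. Every member is named, with each called region and the region found most often, and other genes only where a region was called or differed by 4 or more libraries at rest, except 1 gene that is not reported here. Groups came from titles. Where nothing says that libraries came from separate mice, p-values measure the spread between these libraries, which may be technical. Alternatives were lists of equal length, a stricter q-value, peak coverage, other adjustments and filters, a distance limit of 10 kb, leaving out each library and a replicate block.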

Additional observations from a re-analysis of the deposited data

Results flagged for a closer look

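Of 77 groups of 6 libraries examined at these genes, 10 held a library whose gap to its nearest neighbour was large for the group's range, and for values without ties chance flags about 1 in 20 groups. That rate was not established for small whole numbers of peaks, where any split of 1 library against 5 equal ones is picked out. Control stimulated replicate 6 accounted for 4 of the 10. It had 3 Cebpe peaks, against 0 to 1 in the other 5 libraries, and 1 Fcnb peak, against 0 in the others. Its summits held 20 tags at the Mmp9 region 4159 bp from the gene (10 to 13 in the others) and 25 tags at the strong region inside Mmp9 (11 to 16). Control stimulated replicate 3, the shortest list, held 14 tags at the region inside Mmp8, against 25 to 30. Control stimulated replicate 1 had 1 Mpo peak and the others 0, and diabetic stimulated replicate 3 likewise had 1 against 0. Diabetic stimulated replicate 5 had 0 Fcnb peaks, against 1 in each of the others. Diabetic unstimulated replicate 4 had 0 S100a9 peaks, against 1 in the others. Control unstimulated replicate 6 had 4 Ltf peaks, against 3.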

How the results depend on the processing

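Among the 7 member regions called for stimulation with phenotypes pooled, those 10838 bp upstream of Mmp8 and 4698 bp beyond Ltf passed under every alternative that kept them in the comparison (adjusted p of 4.21e-05 to 0.0239 for Mmp8 and 0.00132 to 0.0441 for Ltf), and the limit of 10 kb left out the Mmp8 region. Adjusting over all regions left 2 calls of the 7. Leaving out each library gave 6 to 8. Counts of called members in diabetic macrophages were 3 in lists of equal length, 1 with −log10 q of at least 5, 2 with peaks covering at least 50% of the region, and 0 to 1 without each library. In control macrophages, against 3, they were 0 with −log10 q of at least 5, 0 when adjusted over all regions and 0 to 5 without each library. For peaks per gene in control macrophages, against 1, the counts were 0 in lists of equal length, 2 with −log10 q of at least 5, 0 undivided and 0 to 2 without each library. The 1 call of Camp height in diabetic macrophages was lost (0 calls) on leaving out any 1 library, and was 0 in lists of equal length, where its region was no longer in every library. No result reversed, and no member was called between phenotypes under any alternative run.

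Same-numbered libraries did not deviate together: correlations lay between −0.0541 and 0.0159, with 0 of 24 pairs above 0.1. The numbers thus gave no sign of pairing. Such correlations cannot exclude that same-numbered libraries of a phenotype came from the same mouse, and pairs across phenotypes cannot bear on this. With the replicate block, 5 of the pooled regions were called, 0 in control macrophages by region, 0 by peaks per gene and 0 by Camp height (adjusted p = 0.21), and the smallest p of 6 pairs is 0.0312. At most 1 of 6 libraries correlated best with its own number. Detection in 6 libraries a group and summits of 5 to 54 tags limit what could be seen, and for weak regions a missing peak may lie just below the threshold.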
